A study of Mus musculus with 22 samples.

Results

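Whole blood of mice carrying a K5-VGLL3 transgene was compared gene by gene with whole blood of wild-type mice. The comparison rests on 8 of the 22 libraries of the series, chosen by the labelled tissue and strain. Of these, 4 are labelled VGLL3_TG and 4 WT, and every library came from a different animal. In each genotype replicates 1 and 2 were male and replicates 3 and 4 female. VGLL3 is a cofactor of TEAD transcription factors, and K5 stands for keratin 5, whose promoter is active in basal keratinocytes of the skin and in other basal epithelial cells. The remaining libraries hold nonlesional skin of the same 8 animals and cultured keratinocytes. The design states that animals were matched for age and sex. The sources used here do not give their ages, genetic background, site of blood collection or the species of the VGLL3 sequence. The study's title names cutaneous and systemic autoimmunity, and the comparison asks how RNA in the circulation differed in mice whose transgene is directed to the epidermis.

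Whole-blood RNA comes largely from reticulocytes, which are rich in haemoglobin mRNA, and to a smaller part from platelets and leukocytes. Neutrophils store antimicrobial and matrix-degrading proteins in granules that form in order as the cell matures in the bone marrow. Azurophil granules come first, specific (secondary) granules next, and gelatinase granules and secretory vesicles last. The mRNAs of the earlier granules are made mainly by marrow precursors, whereas receptors for chemoattractants and cytokines are made by mature circulating cells. T cells carry the CD3 chains and T cell receptor constant chains, and naive T cells express the homing receptor CCR7.

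The called genes with the highest folds included products of the specific granule, and the promoters of the 4 specific granule genes that passed the test are shown because these genes moved together. Transcription of many specific granule genes is known to need the C/EBP family of factors, whose core site was searched as TTGCNNAA or, on the other strand, TTNNGCAA. Sequences are from RefSeq on GRCm38.p6 (mm10), run 5′ to 3′ on the gene's strand over the 250 bases before the RefSeq start, and stop at the GENCODE start where that lies further upstream. Capitals mark matches to the C/EBP core.
Ltf, chr9:111019042-111019270, plus strand: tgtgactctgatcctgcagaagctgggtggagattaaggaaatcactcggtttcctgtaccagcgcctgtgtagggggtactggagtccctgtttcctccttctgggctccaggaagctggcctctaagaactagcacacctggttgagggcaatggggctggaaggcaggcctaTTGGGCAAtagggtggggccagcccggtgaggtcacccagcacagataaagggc
Ngp, chr9:110419558-110419746, plus strand: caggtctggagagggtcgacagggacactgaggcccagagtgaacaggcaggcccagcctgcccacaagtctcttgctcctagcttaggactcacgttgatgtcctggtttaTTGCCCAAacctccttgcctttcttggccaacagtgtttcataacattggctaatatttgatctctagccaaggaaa
Cd177, chr7:24760312-24760561, minus strand: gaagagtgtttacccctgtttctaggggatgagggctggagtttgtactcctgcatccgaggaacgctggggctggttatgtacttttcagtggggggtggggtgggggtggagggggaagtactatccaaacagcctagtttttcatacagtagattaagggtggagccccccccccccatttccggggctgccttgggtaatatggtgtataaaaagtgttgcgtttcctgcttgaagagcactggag
Chil3, chr3:106167565-106167814, minus strand: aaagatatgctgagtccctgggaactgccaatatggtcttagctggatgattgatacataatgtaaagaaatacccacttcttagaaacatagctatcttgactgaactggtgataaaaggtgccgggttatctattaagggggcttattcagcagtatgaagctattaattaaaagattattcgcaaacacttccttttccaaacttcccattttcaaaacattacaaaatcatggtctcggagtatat
The match in Ltf covered bases 75 to 68 before the RefSeq start and the one printed for Ngp bases 138 to 131, while Cd177 and Chil3 had none. A further match in Ngp lay between its GENCODE and RefSeq starts and is not printed. In the full 250-base windows, 4 of 11 genes of the specific granule list held a match (Ltf, Ngp, Lcn2 and Mmp8), as did 2582 of all 27025 promoters (9.55%). Among the genes that passed the test, 4 of 29 higher genes with a promoter in the table (13.8%) and 8 of 39 lower genes (20.5%) held one. A search for GAGGAA or TTCCTC, the core of the site of the myeloid factor PU.1, matched 12 of the 29 higher promoters (41.4%), 6 of the 39 lower ones (15.4%) and 23.1% of all promoters. Neither motif can contain the other. These are matches of letters, and binding was not measured.

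Total counts were 11197265 to 18235483 per library. Haemoglobin genes took 55.1%, 67.1%, 69.7% and 58.8% of the counts in transgenic replicates 1 to 4 and 60.7%, 74.6%, 71.3% and 75.9% in wild-type replicates 1 to 4. The transgenic share was 62.7% ± 6.87 (SD, n = 4) against 70.6% ± 6.89 (SD, n = 4), and the groups overlapped. The difference of -7.93 percentage points did not pass an exact permutation test (two-sided, p = 0.171). The smallest p that 4 against 4 allows in that test is 0.0286. Mitochondrial genes took 1.32% to 2.71% of the counts. On the first principal component of log2 CPM (44.6% of the variance) transgenic replicates 1 and 4 lay at one end and wild-type replicates 2 and 4 at the other, with transgenic replicate 2 (-6.50) and wild-type replicate 3 (-6.12) side by side. Transgenic replicate 2 stood apart on the second component (19.8%), at -51.1. It held the highest level of Alb, the liver gene of serum albumin, at 0.157, 908, 26 and 30.3 CPM in transgenic replicates 1 to 4 and 0.0561, 3.3, 147 and 57.3 CPM in wild type.

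**Figure D1:**
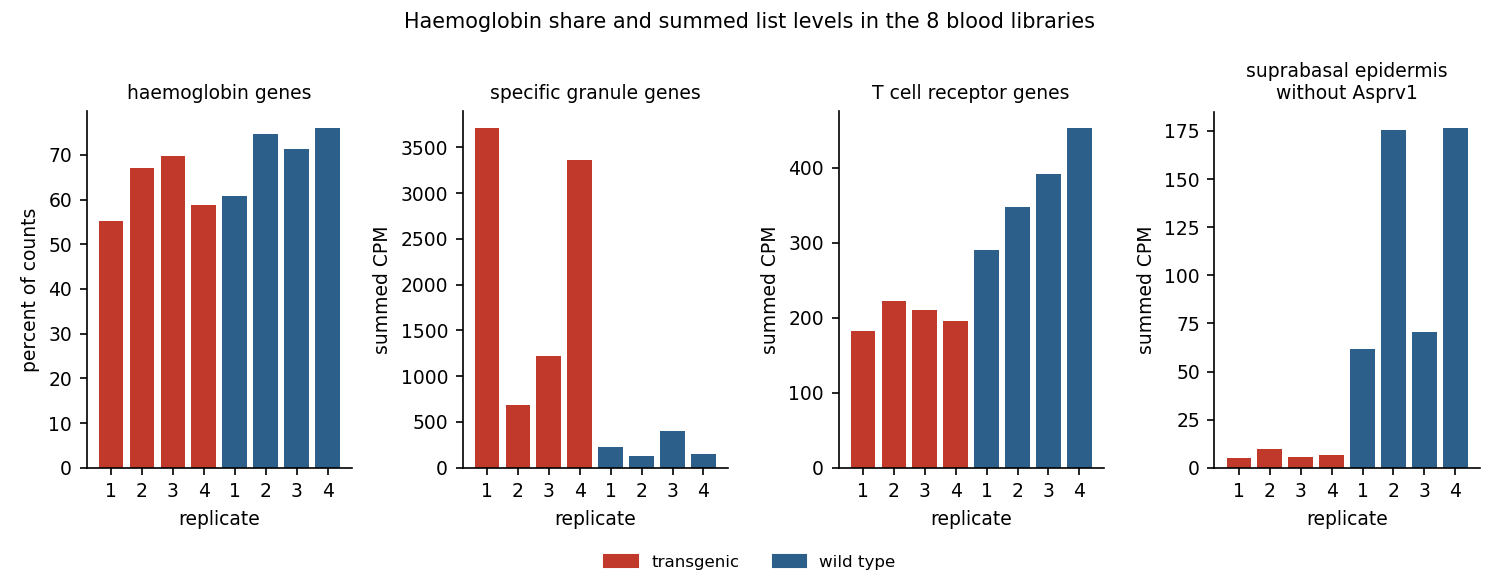
Haemoglobin share of counts (percent) and summed levels (CPM, counts scaled to a common library size) of 3 gene lists in the 8 blood libraries, red for transgenic and blue for wild type. Haemoglobin shares overlap between genotypes, while the sums of specific granule and T cell receptor genes do not. The suprabasal epidermis sums do not overlap without Asprv1, which was dropped after its values were seen, and overlap with it (29.6 to 86.3 against 70.1 to 183 CPM).

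Vgll3 itself was near the limit of detection in blood. Its level was 0.0785, 0.791, 0 and 0 CPM in transgenic replicates 1 to 4 and 0.786, 2.03, 0.257 and 0.387 CPM in wild type, from 17 and 37 counts in all. The groups overlapped, and the gene did not pass the filter on low counts and was not tested. In the skin of the same animals its mean level was 287 CPM in transgenic and 62.2 CPM in wild-type libraries (CPM of total counts). Neither the CPM nor the counts in blood show a higher level of Vgll3 in the libraries labelled transgenic.

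Of 10701 genes tested in blood, 90 (0.841%) passed the edgeR quasi-likelihood test at an adjusted p under 0.05, 33 of them higher (0.308%) and 57 lower (0.533%) in transgenic animals. Neutrophil genes stood among the higher ones, T cell genes and genes of skin and muscle among the lower ones. In 32 of the 33 higher genes and all 57 lower genes the groups did not overlap, as in 395 (3.69%, transgenic above) and 537 (5.02%, transgenic below) of all genes tested. The median log2 fold change (transgenic minus wild type) over all genes was -0.05, with 44.9% positive and 55.1% negative. DESeq2 called 301 higher (2.81%) and 118 lower genes (1.1%). Scaling by total counts moved that median to 0.24 and the calls to 118 higher and 47 lower. The number of calls depended on single libraries: without transgenic replicates 1, 2, 3 and 4 in turn there were 2, 351, 9 and 1 higher and 13, 215, 17 and 12 lower genes, and without wild-type replicates 1, 2, 3 and 4 there were 0, 0, 104 and 0 higher and 26, 14, 69 and 12 lower genes. With the haemoglobin share as a covariate, 0 higher and 14 lower genes passed. The filter asks for a minimal count in 4 libraries, so a gene detected in only 1 genotype could enter the test. Labels name separate animals, and the p-values measure the spread between them.

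**Figure D2:**
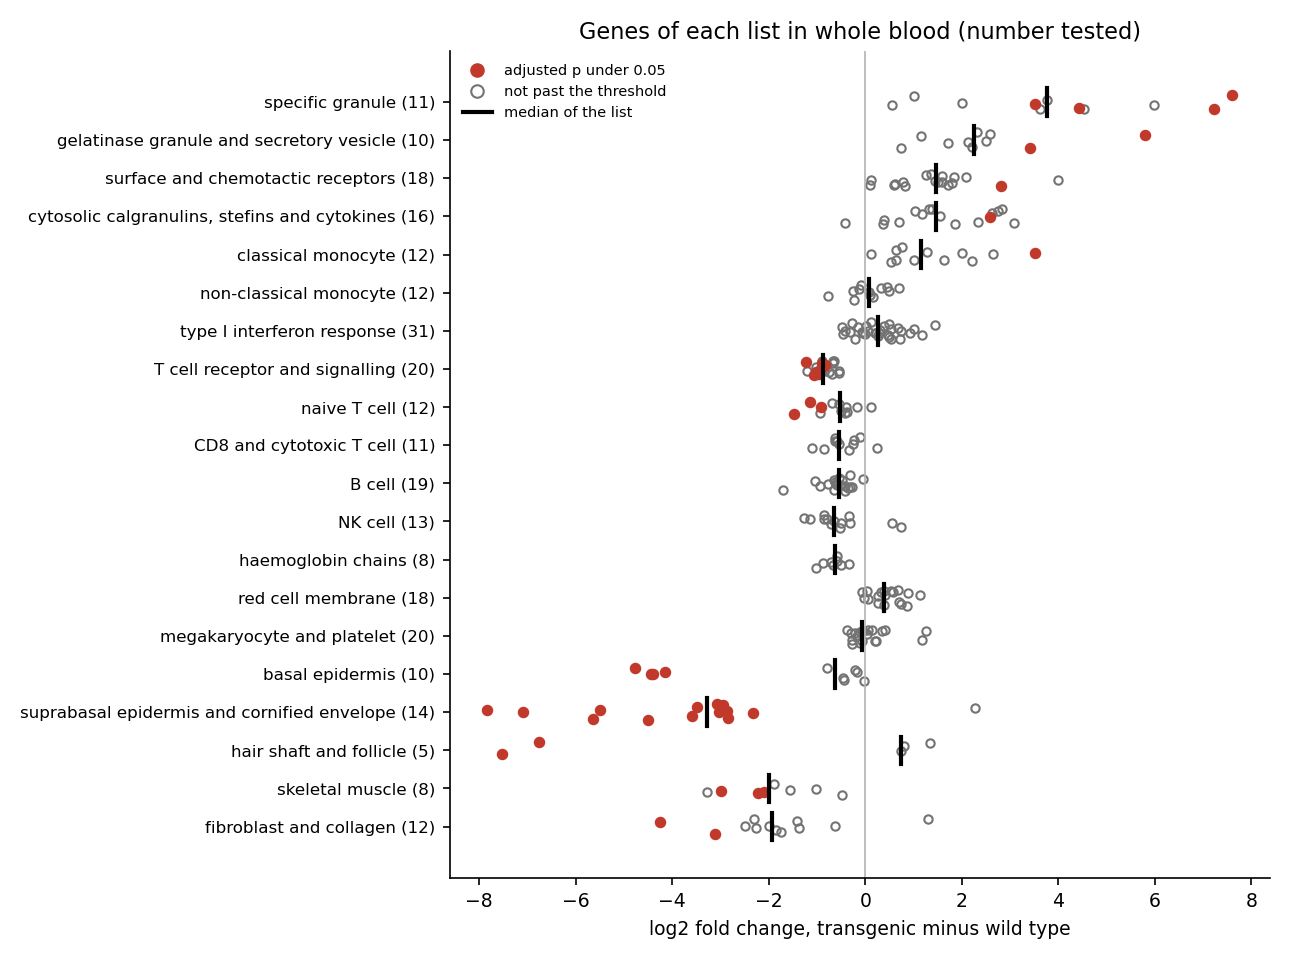
Log2 fold change in whole blood (transgenic minus wild type, horizontal axis) of the tested genes of 20 lists, with filled points for genes past an edgeR adjusted p of 0.05 and a bar at the list's median. Specific granule genes have a median of 3.77, T cell receptor genes of -0.87 and suprabasal epidermis genes of -3.28.

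Specific granule genes showed the highest folds of the neutrophil lists. All 11 tested genes of the list were positive and 4 passed the test (Ltf, Ngp, Cd177 and Chil3), against 0.308% of all genes tested. The median log2 fold change was 3.77, with a range of 0.56 to 7.61. The filter could admit members by their transgenic counts alone, which favoured higher genes in this list. Its shares therefore cannot be weighed against those of all genes. Lactoferrin (Ltf), an iron-binding antimicrobial protein, read 712, 4.96, 213 and 689.7 CPM in transgenic replicates 1 to 4 and 1.35, 0.381, 5.84 and 1.55 CPM in wild type. Transgenic replicates 1, 3 and 4 were high, but replicate 2 was lower than wild-type replicate 3, so the groups overlapped. The log2 fold change of Ltf was 7.61 (SE 1.38, edgeR adjusted p = 0.0447). Ngp, which encodes neutrophilic granule protein, read 827, 23, 255 and 800.0 CPM against 2.53, 0.888, 9.56 and 0.387 CPM. Its groups did not overlap, and transgenic replicate 2 was again the lowest of its group and wild-type replicate 3 the highest of its own. The log2 fold change of Ngp was 7.22 (SE 1.26, edgeR adjusted p = 0.0414).

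Cd177, a glycoprotein of the neutrophil surface and of specific granules, had 229, 26.3, 68.7 and 190.0 CPM in transgenic blood and 6.51, 4.06, 9.24 and 3.49 CPM in wild type, with no overlap. It was 21.7-fold higher (log2 fold change 4.44, SE 0.68, edgeR adjusted p = 0.0278). Chil3, a chitinase-like protein of neutrophil precursors and monocytes, had 229.6, 54.5, 64.4 and 195 CPM against 12.6, 4.95, 21.7 and 9.17 CPM. Every transgenic library was above every wild-type library, by log2 3.52 on average (SE 0.60, edgeR adjusted p = 0.0396). The antimicrobial peptide precursor Camp, at 106, 2, 33.5 and 113 against 0.618, 0.634, 2.5 and 0 CPM, overlapped between genotypes and did not pass (log2 fold change 5.98, edgeR adjusted p = 0.0606). Lcn2, an iron-siderophore binding protein (4.54, adjusted p = 0.0843), and the collagenase Mmp8 (3.77, adjusted p = 0.0805) did not overlap but did not pass the edgeR test either. The 12th gene of the list, the transporter Abca13, did not pass the filter because of its level in transgenic replicate 2, at 26.5, 0.58, 9.33 and 25.8 CPM against 0.225, 0, 0 and 0 CPM.

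The summed level of the specific granule list was 3707, 683, 1226 and 3358 CPM in transgenic replicates 1 to 4 and 225, 125, 399.9 and 147 CPM in wild type. Transgenic replicates 1 and 4 had the highest sums, and the lowest transgenic sum exceeded the highest wild-type sum. Without transgenic replicate 1 or 4 or replicate 1, 2 or 4 of the wild type the list had 0 called members by edgeR, and without transgenic replicate 3 it had 1. It had 9 without transgenic replicate 2 and 8 without wild-type replicate 3. Beside these genes, the haemoglobin share ran from 55.1% to 69.7% in transgenic and from 60.7% to 75.9% in wild-type libraries, and with that share as a covariate the list's median was 2.49 with 0 members called.

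**Figure D3:**
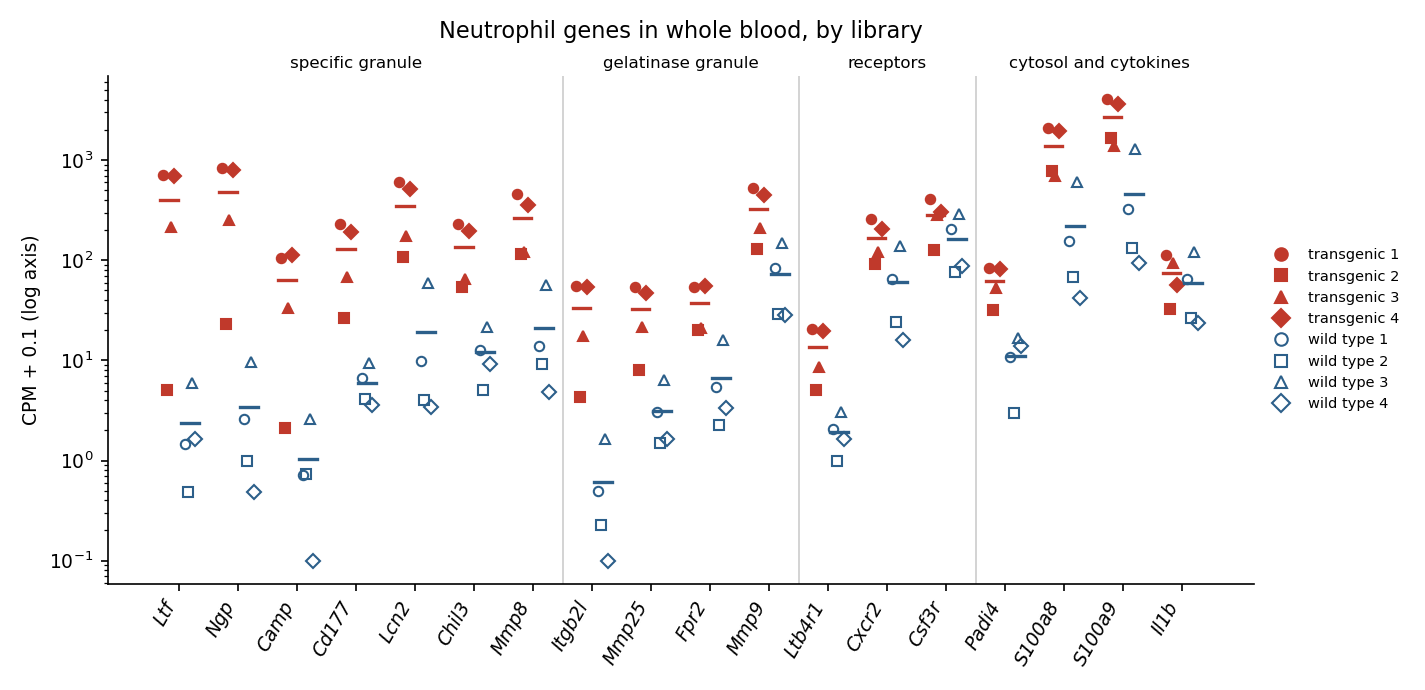
CPM + 0.1 (log axis) of 18 neutrophil genes in each blood library, grouped by granule class or role, with filled red symbols for transgenic and open blue symbols for wild-type libraries and bars at the mean. Transgenic replicate 2 (square) is the lowest transgenic library for Ltf and Ngp, and wild-type replicate 3 (triangle) is the highest wild-type library for most genes.

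The later granule classes and the surface and cytosolic genes of neutrophils had smaller folds. The medians were 2.26 over 10 gelatinase granule and secretory vesicle genes, 1.48 over 18 receptors and 1.46 over 16 cytosolic proteins and cytokines. The differences between these medians were not tested. In these lists too the filter could admit genes by their transgenic counts alone. Their shares of positive and called genes therefore cannot be weighed against those of all genes. Of the gelatinase granule list all 10 genes were positive (44.9% of all genes tested were). Itgb2l and Mmp25 passed as higher (0.308% of all genes did). Itgb2l, an integrin beta chain of the neutrophil lineage, read 55.6, 4.17, 17.4 and 54.5 CPM against 0.393, 0.127, 1.54 and 0 CPM. Its lowest transgenic library was above its highest wild-type library, and the log2 fold change was 5.80 (SE 0.98, edgeR adjusted p = 0.0396). Mmp25, a membrane-bound matrix metalloproteinase of leukocytes, read 53.8, 8.01, 21.6 and 46.8 CPM against 2.92, 1.4, 6.22 and 1.55 CPM and did not overlap (log2 fold change 3.40, edgeR adjusted p = 0.0467). Gelatinase B itself, Mmp9, read 524, 130.3, 209 and 448 CPM against 83.8, 29, 150.3 and 28.4 CPM, with wild-type replicate 3 above transgenic replicate 2, and did not pass (2.20, edgeR adjusted p = 0.152).

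Among receptors, 18 of 18 were positive (44.9% of all genes tested were) and 1 passed as higher (0.308% of all did). That gene was Ltb4r1, the receptor for the chemoattractant leukotriene B4, at 20.3, 5.01, 8.49 and 19.7 CPM against 1.97, 0.888, 2.95 and 1.55 CPM, without overlap (log2 fold change 2.82, SE 0.50, edgeR adjusted p = 0.0416). Ly6g, the surface marker used to stain mouse neutrophils, read 51.6, 14.8, 11.9 and 39.3 CPM against 0.786, 0.254, 6.93 and 0 CPM. The groups of Ly6g did not overlap, but its log2 fold change of 3.99 did not pass (edgeR adjusted p = 0.115). Other receptors of mature neutrophils had lower folds. Csf3r, the receptor for granulocyte colony-stimulating factor, read 412, 126, 285 and 302 CPM against 206, 75.7, 290.2 and 87.9 CPM, and the chemokine receptor Cxcr2 259, 91.5, 119.8 and 204 CPM against 64.4, 24.2, 139.7 and 15.9 CPM. Both overlapped between genotypes, with log2 fold changes of 0.78 (edgeR adjusted p = 0.455) and 1.52 (adjusted p = 0.293).

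Of the cytosolic list 15 of 16 genes were positive (44.9% of all genes tested were) and 1 passed as higher (0.308% of all did). That gene was Padi4, which converts arginine of histones to citrulline. Padi4 read 83, 32, 52.6 and 81.2 CPM against 10.7, 2.92, 16.6 and 13.7 CPM, did not overlap and was 5.99-fold higher (log2 fold change 2.58, SE 0.44, edgeR adjusted p = 0.0396). S100a8 and S100a9 encode the subunits of calprotectin, an abundant cytosolic protein of neutrophils. S100a8 read 2081, 783, 688 and 1941 CPM against 157, 67.7, 610.3 and 41.8 CPM and S100a9 4103, 1661, 1389 and 3638 CPM against 324, 131, 1295 and 93.5 CPM. For both, transgenic replicates 1 and 4 were high and the lowest transgenic library was just above wild-type replicate 3, and neither passed (log2 fold changes 2.84 and 2.76, edgeR adjusted p = 0.16 and 0.174). The cytokine Il1b read 114, 32.3, 94.1 and 56.3 CPM against 64.9, 26.1, 121 and 23.5 CPM, overlapped and did not pass (0.36, edgeR adjusted p = 0.783). Across these 3 lists the number called by edgeR was 0 in each without transgenic replicate 1, 3 or 4 or replicate 1, 2 or 4 of the wild type. It was 8, 5 and 2 (gelatinase granule, receptors and cytosol) without transgenic replicate 2, and 6, 6 and 9 without wild-type replicate 3.

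Genes of the azurophil granules, the earliest, had few counts. Myeloperoxidase (Mpo) read 0.118, 0.158, 0.0841 and 0.146 CPM in transgenic libraries and 0, 0, 0 and 0 CPM in wild type, from 9 and 0 counts. The elastase gene Elane had 7 and 0 counts and cathepsin G (Ctsg) 10 and 1. None of the 3 passed the filter. Of the 6 azurophil genes with a row in the table only Prtn3 and Serpinb1a were tested, and neither passed (log2 fold changes 2.47 and 0.67, edgeR adjusted p = 0.141 and 0.267). Of the transcription factors that drive granulocyte maturation, Cebpe, which is needed for specific granules, did not pass the filter either, at 3.14, 0.158, 1.01 and 4.44 CPM against 0.449, 0.127, 0.321 and 0.387 CPM. Transgenic replicates 1 and 4 were its highest libraries. None of the 9 tested myeloid transcription factors passed, with 5 positive and 4 negative.

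Several other genes with higher levels are known from neutrophils or their function. Ifitm6, an interferon-induced transmembrane family member of myeloid cells, read 246, 46.8, 68 and 196 CPM against 9.43, 4.69, 18.2 and 6.33 CPM without overlap (log2 fold change 3.87, edgeR adjusted p = 0.0374). Prok2, the secreted peptide prokineticin 2, read 26.7, 6.17, 5.13 and 15.6 CPM against 0, 0, 1.09 and 0 CPM, with 3 wild-type libraries at 0 (log2 fold change 5.33, edgeR adjusted p = 0.0458). Lipg, which encodes endothelial lipase, read 44.2, 2.21, 7.23 and 22.9 CPM against 0, 0.127, 0.578 and 0 CPM and showed the same order of libraries as Ngp within the transgenic group (log2 fold change 6.49, edgeR adjusted p = 0.0448). The potassium channel gene Kcnn3 was counted 134 times over all transgenic libraries and 2 times over all wild-type libraries, which is 46.9-fold higher (95% counting interval 12.7 to 391, which covers counting error only). Ggt1 (gamma-glutamyltransferase), Adpgk (ADP-dependent glucokinase), the complement C1r-like protease C1rl, Chil5, Cldn15, Adgrg3, the small GTPases Rhou and Rhov, Plscr1 and the kinase Fam20c were 5.99 to 10.8-fold higher. Smaller folds, from 2.08 to 4.81, were called for Ckap4, Slc25a24, the vitamin B12 carrier Tcn2, Golim4, Adam15, Emilin1, progranulin (Grn), coagulation factor 10 (F10), Ralb and Cln8. The 33rd gene carries only a clone name in the deposited table. F10 varied little within its groups, at 18.3, 18.3, 13.8 and 19.2 CPM against 5.95, 6.34, 8.79 and 8.14 CPM.

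Of 12 classical monocyte genes 1 passed as higher (0.308% of all genes tested did), Chil3, which is also on the specific granule list. All 12 were positive (44.9% of all genes tested were), with a median of 1.15. Their summed level was 2105 to 2702 CPM in transgenic against 902 to 1644 CPM in wild-type libraries, without overlap. Lysozyme 2 (Lyz2) read 1119, 1324, 1115 and 1270.0 CPM against 662, 492, 750.0 and 1002 CPM, also without overlap (0.76, edgeR adjusted p = 0.223). The chemokine receptor Ccr2, which lets classical monocytes leave the marrow, overlapped, at 84.3, 86.4, 70.7 and 100.1 CPM against 79.2, 34.5, 66 and 38.2 CPM (0.65, edgeR adjusted p = 0.311). Without transgenic replicate 1 or 4 or replicate 1, 2 or 4 of the wild type, 0 genes of the list passed by edgeR. The list had 3, 2 and 4 called members without transgenic replicate 2, transgenic replicate 3 and wild-type replicate 3. The 12 non-classical monocyte genes had a median of 0.09 and 0 passed. Over the same libraries the specific granule sum was 683 to 3707 against 125 to 399.9 CPM, and its part in the monocyte values was not tested.

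Genes of the T cell receptor complex and of naive T cells were among those lower in transgenic blood. All 20 genes of the T cell receptor and signalling list were negative, 7 passed (among them Cd3d, Cd3e, Cd3g, Cd27, Skap1 and Trbc2) against 0.533% of all genes tested, and 18 did not overlap between the groups, against 5.02%. The median log2 fold change was -0.87, with a range of -1.22 to -0.53. The list also had all 20 genes negative when counts were scaled by total counts (median -0.56) or with the haemoglobin share as a covariate (median -0.76), but then 0 passed. In bulk blood, fewer T cells and less RNA per T cell cannot be told apart.

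The CD3 chains transmit the signal of the T cell receptor. Cd3d read 7.82, 9.12, 10.3 and 9.39 CPM in transgenic replicates 1 to 4 and 15.2, 18.8, 20.5 and 21.8 CPM in wild type. Every transgenic value was below every wild-type value, and the spread within each group was small (9.15 ± 1.01 against 19.1 ± 2.88 CPM, SD, n = 4 each). Cd3d fell by 1.05 on the log2 scale (SE 0.15, edgeR adjusted p = 0.0216). Cd3g read 8.52, 11.8, 12.1 and 11.4 CPM against 17.7, 21.3, 20.9 and 24.9 CPM and Cd3e 6.87, 5.11, 7.23 and 7.06 CPM against 9.99, 11, 13.4 and 12.8 CPM. Neither overlapped, and they fell by 0.95 and 0.84 on the log2 scale (edgeR adjusted p = 0.0414 and 0.0467). The constant chain gene Trbc2 read 10, 15.7, 13.3 and 12.7 CPM against 20.9, 26.4, 34.5 and 42.6 CPM, with wild-type replicate 4 the highest, and fell by 1.22 on the log2 scale (edgeR adjusted p = 0.0441). Reads of Trbc2 and its near copy Trbc1 can be split between them. Trbc1, at 6.32, 8.65, 9.33 and 8.08 against 11.8, 16.1, 19.3 and 31.4 CPM, did not pass (-1.21, edgeR adjusted p = 0.0518).

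Downstream of the receptor, the adaptor Skap1 read 5.89, 6.01, 7.15 and 6.26 CPM against 9.49, 11.8, 12.8 and 12 CPM. The costimulatory receptor Cd27 read 5.34, 5.17, 6.9 and 5.97 CPM against 10.8, 10.8, 11.4 and 14.3 CPM. Neither gene overlapped between the groups, and the falls were 0.86 and 1.02 on the log2 scale (edgeR adjusted p = 0.0433 and 0.0277). The kinase Lck (-0.90, edgeR adjusted p = 0.0699), the receptor constant chain Trac (-0.74, adjusted p = 0.0929) and Cd5 (-0.85, adjusted p = 0.0699) did not overlap but did not pass.

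Of 12 naive T cell genes, 11 were negative (55.1% of all genes tested were) and 3 passed as lower (0.533% of all did). Ccr7, which directs naive T cells to lymph nodes, had 18.2, 13.4, 20.8 and 18.4 CPM against 33, 35.6, 31.6 and 32 CPM, and the wild-type libraries lay close together (33.1 ± 1.82 CPM, SD, n = 4). It fell by 0.91 on the log2 scale (SE 0.17, edgeR adjusted p = 0.0467). The transcription factor Lef1 read 5.34, 6.91, 8.58 and 8.08 CPM against 17.2, 14.5, 15 and 16.4 CPM and fell by 1.14 (edgeR adjusted p = 0.0277), and Dapl1 by 1.49 (adjusted p = 0.0447). The receptor Cd96, the GTPase Rhoh and Nsg2, known from T cells as well as neurons, fell by 1.02, 0.91 and 1.04 on the log2 scale and are on none of the lists. The coreceptors of both T cell lineages did not pass. Cd4 read 9.35, 7.33, 12.7 and 13.6 CPM against 15.4, 14.1, 18 and 31.3 CPM and Cd8a 11.3, 10.1, 15 and 11.3 CPM against 15.5, 17.5, 16.9 and 38.6 CPM. Neither overlapped (log2 fold changes -0.86 and -0.85, edgeR adjusted p = 0.0922 and 0.174). Wild-type replicate 4 was the highest library for both.

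**Figure D4:**
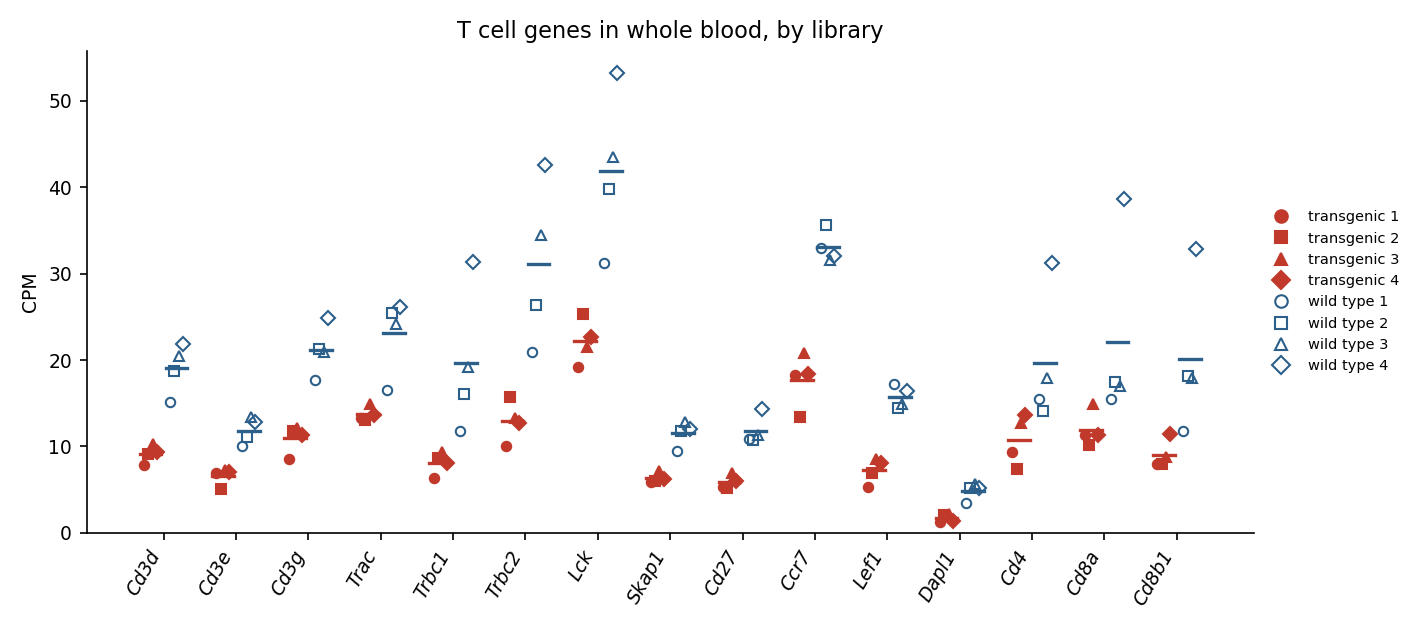
CPM (linear axis from 0) of 15 T cell genes in each blood library, with filled red symbols for transgenic and open blue symbols for wild-type libraries and bars at the mean. The transgenic libraries of each gene lie below the wild-type libraries, and wild-type replicate 4 (diamond) is high for Cd4, Cd8a and Cd8b1.

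The T cell calls depended on the libraries in the fit. Without transgenic replicate 1, 3 or 4 or replicate 2 or 4 of the wild type, 0 genes of the receptor list passed the edgeR test. It had 1 called member without wild-type replicate 1, 5 without wild-type replicate 3 and 14 without transgenic replicate 2. For the naive list the numbers were 0 without any 1 of transgenic replicates 1, 3 and 4 and wild-type replicates 1, 2 and 4, and 5 and 1 without transgenic replicate 2 and wild-type replicate 3. The summed level of the receptor list was 182 to 222 CPM in transgenic and 291 to 452 CPM in wild-type blood. Over the same libraries the summed specific granule level was 683 to 3707 against 125 to 399.9 CPM and the summed level of the suprabasal epidermis list without Asprv1 was 4.99 to 9.70 against 61.8 to 176 CPM. CPM are shares of a total, and the part of these 2 lists in the T cell values was not tested. When the genes at least 10 times more abundant in skin than in blood were left out of the fit, 0 T cell genes passed the edgeR test, while the median of the receptor list was -0.91 with 20 of 20 genes negative.

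Other lymphocyte lists had no gene past the test. All 19 tested B cell genes were negative (55.1% of all genes tested were), with a median of -0.54. Of these, 3 did not overlap between the groups (Fcer2a, Tnfrsf13c and Vpreb3), against 5.02% of all genes tested. The IgE receptor Fcer2a read 24, 24.5, 36 and 22.3 CPM against 72.4, 80.3, 38.1 and 40.7 CPM, and Tnfrsf13c, the receptor for the survival factor BAFF, 7.58, 11.1, 9.5 and 6.55 CPM against 19.4, 21.7, 14.8 and 11.2 CPM (log2 fold changes -1.05 and -0.93, edgeR adjusted p = 0.132 and 0.0886). Scaled by total counts, 1 of the 19 genes was positive. Of 13 NK cell genes 11 were negative and 2 positive, with a median of -0.65. In males alone 6 were positive (median -0.07), and with the haemoglobin share as a covariate the median was -0.24. The summed NK level overlapped, at 234 to 296 CPM in transgenic and 170 to 301 CPM in wild-type blood. The inhibitory receptor Klra8 had the smallest p of the list (-1.26, edgeR adjusted p = 0.104). Among genes of plasma cells and immunoglobulin constant regions, 13 of 18 were negative (median -0.43), and 9 with the haemoglobin share as a covariate. Ighd, the delta heavy chain of naive B cells, read 99.8, 106, 127 and 82.5 CPM against 233, 237, 154 and 128 CPM and did not overlap (-0.81, edgeR adjusted p = 0.159).

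No gene on the type I interferon response list passed the test, and the called gene Ifitm6 is not on that list. Of the 31 listed genes tested, 21 were positive and 10 negative, with a median of 0.27. With the haemoglobin share as a covariate 13 were positive and the median was -0.02. Scaled by total counts 28 were positive and the median was 0.49. Isg15, a ubiquitin-like protein induced by interferon, read 301, 169, 309 and 537 CPM against 117, 229, 214 and 374 CPM, and the transcription factor Irf7 78.3, 74.2, 170.2 and 202 CPM against 74.3, 94.5, 198 and 329.9 CPM. Both overlapped, in opposite directions on average (0.48 and -0.33, edgeR adjusted p = 0.496 and 0.499). Oas3, an RNA-binding synthetase of the antiviral response, overlapped at 67.3, 27, 54.6 and 91 CPM against 23.2, 20.5, 33.9 and 43.4 CPM (1.01, edgeR adjusted p = 0.152). Tlr7, the endosomal sensor of single-stranded RNA, read 14.9, 13.2, 14.5 and 17.6 CPM against 12.4, 7.23, 12.1 and 9.56 CPM. Its groups did not overlap and its log2 fold change of 0.54 did not pass (edgeR adjusted p = 0.239). Among MHC class I and antigen processing genes, 11 of 14 had negative values (median -0.21), but 9 of the 14 were positive when scaled by total counts, and among genes of MHC class II and of the interferon-gamma response 11 of 17 did (median -0.18). In neither did a gene pass.

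Red cell genes overlapped between genotypes. All 8 haemoglobin chain genes had negative log2 fold changes (median -0.62, range -1.02 to -0.33) and 0 passed. Scaled by total counts 1 of the 8 was positive, and with the haemoglobin share as a covariate 5 were. The adult chains Hba-a1, Hba-a2, Hbb-bs and Hbb-bt were at -0.66, -0.71, -0.58 and -0.51, the embryonic chains Hbb-bh1 and Hbb-y at -0.88 and -0.58, and the theta chains Hbq1a and Hbq1b at -1.02 and -0.33. Near-identical alpha and beta chain copies can share reads. The smallest p among them was that of Hbq1a, at 11.8, 27, 39.7 and 15.9 CPM against 19, 73.4, 38.4 and 58.5 CPM (-1.02, edgeR adjusted p = 0.319). Of 18 red cell membrane genes 16 were positive (median 0.39), and of 20 platelet genes 9 were positive (median -0.06), again with 0 past the threshold. Scaled by total counts 19 of the 20 platelet genes were positive (median 0.33), and with the haemoglobin share as a covariate 18 were (median 0.16). Selp, which encodes the adhesion protein P-selectin of platelets and endothelium, read 12.3, 11.9, 14.5 and 12.2 CPM against 5.28, 2.92, 3.53 and 11.8 CPM and did not overlap (1.19, edgeR adjusted p = 0.169).

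Remaining lists of blood cells and immune programmes had 0 genes past the edgeR threshold. Among them, 10 of 14 Fc and complement receptor genes were positive (median 0.57), with Fcgr4, an activating IgG receptor of neutrophils and monocytes, at 23.4, 10.3, 12.4 and 20.4 CPM against 7.47, 2.54, 8.47 and 3.1 CPM (1.58, edgeR adjusted p = 0.134). Of 12 inflammasome and interleukin-1 genes 9 were positive (median 0.61), and of 14 nucleic acid sensors 10 (median 0.18). Cd93, a lectin receptor of marrow progenitors and myeloid cells, came nearest to the threshold, at 27.5, 14.5, 17.4 and 21.9 CPM against 9.88, 10.3, 5.58 and 8.52 CPM without overlap (1.27, edgeR adjusted p = 0.0503). The other 7 tested bone marrow progenitor genes were farther from it (median of the 8 0.31). Medians were -0.73 for CD4 and regulatory T cells, -0.52 for gamma-delta T cells and -0.33 for dendritic cells, against -0.05 over all genes tested, with ranges of -0.85 to -0.27, -0.76 to -0.18 and -0.62 to -0.12 over the alternatives and libraries left out. The CD8 T cell median of -0.54 was 0.17 in males alone, with 7 of 11 genes positive.

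For other lists the sign of the median rested on single libraries or on the scaling, and no direction is given. Of 21 cell cycle genes 15 were negative (median -0.44), but without wild-type replicate 4 the median was 0.065 with 11 genes positive. The macrophage median of 0.92 became -0.33 without transgenic replicate 2 and 1.53 without wild-type replicate 4. For basophils and mast cells it was 0.34, -0.21 without transgenic replicate 2 and 1.43 without wild-type replicate 4. The eosinophil median of 0.16 became -0.05 without transgenic replicate 3 and -0.07 without wild-type replicate 4. Haem synthesis and iron uptake genes had a median of 0.26, and -0.08 without wild-type replicate 1. Nerve and melanocyte genes went from -0.33 without wild-type replicate 1 to 0.91 without wild-type replicate 4. Medians of the endothelium (-0.17), erythroid transcription factor (-0.05) and TEAD target and Hippo pathway lists (0.01) lay on both sides of 0 over the alternatives. The immediate early list, at 0.17, was at 0.01 without transgenic replicate 4.

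Keratins and other genes of the epidermis had the lowest log2 fold changes in transgenic blood. Of the 57 lower genes, 25 were on the lists of epidermis, hair, sebaceous gland, skeletal muscle and fibroblasts. Of all 10701 genes tested, these lists held 10 (basal epidermis), 14 (suprabasal), 5 (hair), 5 (sebaceous gland and adipocyte), 8 (muscle) and 12 (fibroblast). Another comparison came from the skin libraries of the same animals: 42 of the 57 lower genes had a mean CPM of total counts in skin at least 10 times that in blood, as did 3 of the 33 higher genes and 2953 of all 10701 genes tested (27.6%). Skin and blood RNA were isolated with different kits, and no correction was made for that. The 15 lower genes below that ratio included Krt2, Krt36, Cytl1 and the called T cell genes named above other than Dapl1. The blood mean was taken over all 8 libraries, so low transgenic levels raised the ratio of lower genes. The filter could also admit lower genes by their wild-type counts alone. For both reasons 42 of 57 cannot be weighed against the 27.6% of all genes.

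Krt5 and Krt14 encode the keratin pair of basal keratinocytes. Krt5 read 0.943, 0.896, 0.505 and 0.728 CPM in transgenic replicates 1 to 4 and 10.1, 24.4, 11.8 and 23 CPM in wild type. All 4 wild-type libraries were at least 10 CPM and all 4 transgenic ones under 1 CPM, and wild-type replicates 2 and 4 were the highest. Krt5 fell by 4.45 on the log2 scale (SE 0.37, edgeR adjusted p = 0.00294), and Krt14, at 0.432, 1.05, 0.336 and 0.364 CPM against 9.1, 24.5, 8.6 and 18.2 CPM, by 4.78 (SE 0.47, adjusted p = 0.00432). Krt15 fell by 4.39 (edgeR adjusted p = 0.00562) and Col17a1, a collagen that anchors basal cells, by 4.15 (adjusted p = 0.0132). The other 6 tested genes of the basal list did not pass, and 0.533% of all genes tested passed as lower. Here as well the filter could admit genes by their wild-type counts alone.

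Of 25 genes of the suprabasal epidermis and cornified envelope, 14 were tested and 13 passed as lower, against 0.533% of all genes tested. The same 13 had all transgenic libraries below wild type, against 5.02%. Members with few counts in transgenic blood, such as Krt1, passed the filter through the wild-type libraries alone. The filter thus favoured lower genes in this list, and its shares cannot be weighed against those of all genes. The paired keratins Krt1 and Krt10 of differentiating keratinocytes read 0.0393, 0.105, 0 and 0.146 and 0.236, 1, 0.252 and 0.873 CPM in transgenic blood. In wild-type blood they read 4.15, 19.2, 4.49 and 16.4 and 13.1, 43.9, 16.4 and 45.8 CPM. They fell by 7.09 and 5.63 on the log2 scale (edgeR adjusted p = 0.00651 and 0.00562). Krtdap, a secreted protein of differentiating keratinocytes, loricrin (Lor), the main protein of the cornified envelope, and the desmosome protein desmoplakin (Dsp) fell by 5.49, 4.49 and 2.85, and Krt77, another suprabasal keratin, by 3.49. The summed level of the whole list overlapped between genotypes, at 86.3, 32, 29.6 and 66.9 CPM in transgenic and 70.1, 182, 89.1 and 183 CPM in wild-type blood. The summed level without Asprv1, which was left out after its values were seen, was 4.99, 9.70, 5.63 and 6.84 CPM in transgenic replicates 1 to 4 and 61.8, 175.7, 70.4 and 176 CPM in wild type. Wild-type replicates 2 and 4 were the highest, and they also had the highest haemoglobin shares (74.6% and 75.9%). The exception in the list was Asprv1, a protease that is also expressed in neutrophils, at 81.3, 22.3, 24 and 60 CPM in transgenic and 8.37, 5.83, 18.7 and 6.72 CPM in wild-type blood. Its order of libraries, with transgenic replicates 1 and 4 highest, was that of the neutrophil genes, and it did not pass (2.27, edgeR adjusted p = 0.092).

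The type II keratin Krt2, found in mice mainly in ear, sole and tail skin, had the lowest log2 fold change of all called genes. It read 0.0785, 0.158, 0.0841 and 0 CPM in transgenic blood and 9.21, 35.1, 9.24 and 30.9 CPM in wild-type blood, without overlap (-7.84, SE 0.75, edgeR adjusted p = 0.00432). In CPM of total counts, Krt2 read 16.4 in wild-type blood against 4.3 in wild-type skin, 382% of the skin level. The other keratins had far lower ratios: wild-type blood held 0.486% of the skin level of Krt5, 0.814% of Krt14, 0.974% of Krt10 and 1.41% of Krt1. For Krt84 and Krt36, which belong to the hard keratins of hair and nail, the ratios were 9.56% and 14.6%. Wild-type blood did not hold these genes in the proportions of the skin samples from the same animals. Krt36 had 1 count in transgenic and 153 in wild-type blood, 219-fold lower (95% counting interval 38.7 to 8692), and Krt84 had 3 and 193, 91.9-fold lower (31.0 to 450). The hair genes Tchh, Krt25 and Krt71 were positive and did not pass (log2 fold changes 1.34, 0.80 and 0.74).

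**Figure D5:**
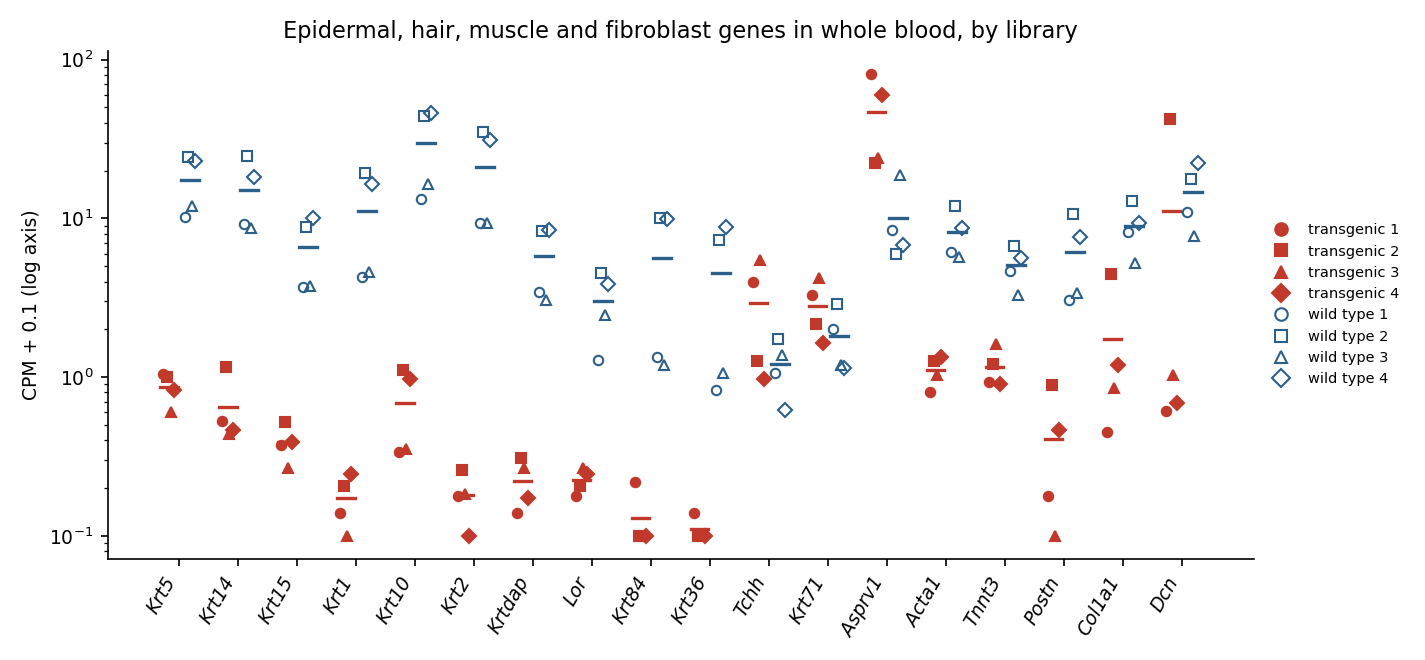
CPM + 0.1 (log axis) of 18 epidermal, hair, muscle and fibroblast genes in each blood library, with filled red symbols for transgenic and open blue symbols for wild-type libraries and bars at the mean. Wild-type libraries lie above transgenic ones for most genes, with Asprv1 reversed, Tchh and Krt71 overlapping and transgenic replicate 2 (square) the highest for Dcn.

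Some muscle and fibroblast genes passed as lower. Of 17 skeletal muscle genes 8 were tested, and the filter could admit genes by their wild-type counts alone. All 8 were negative (median -2.0), as were 55.1% of all genes tested, and 3 passed as lower, against 0.533% of all. The summed level of the list was 6.09 to 10.2 CPM in transgenic and 27.9 to 51.6 CPM in wild-type blood. Skeletal alpha-actin (Acta1) read 0.707, 1.16, 0.925 and 1.24 CPM against 6.06, 11.9, 5.65 and 8.65 CPM, without overlap, and fell by 2.99 on the log2 scale (SE 0.32, edgeR adjusted p = 0.00562). The fast troponin Tnnt3 and titin (Ttn) fell by 2.22 and 2.10 (edgeR adjusted p = 0.0214 and 0.0433). Wild-type blood held 0.132% of the skin level of Acta1. Of 12 tested fibroblast and collagen genes 11 were negative (median -1.93), as were 55.1% of all genes tested. The matrix proteins Postn and Lum passed as lower, falling by 4.26 and 3.11, and 0.533% of all genes did. For this list too the filter could admit genes by their wild-type counts alone. The fibroblast median was -3.83 without transgenic replicate 2, -0.90 in males alone and -0.80 with the haemoglobin share as a covariate. The collagen chain Col1a1 read 0.353, 4.38, 0.757 and 1.09 CPM against 8.08, 12.7, 5.13 and 9.3 CPM and did not pass (-2.49, edgeR adjusted p = 0.109). Decorin (Dcn) was highest in transgenic replicate 2, at 0.511, 42.2, 0.925 and 0.582 CPM against 10.8, 17.6, 7.64 and 22.1 CPM. Of the sebaceous gland and adipocyte list, the fatty acid elongase Elovl3 passed, with 2 against 53 counts, 37.9-fold lower (95% counting interval 9.98 to 321).

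Other lower genes belong to the same tissues or were on no list. Calmodulin 4 (Calm4), the lipid enzymes Elovl4 and Fa2h, the desmosome genes Pkp1 and Dsc3, the protease inhibitor Spink5, Krt79 and Krt17, all known from epidermis or its glands, fell by 2.22 to 5.94 on the log2 scale. Elovl4 had the smallest spread of these, at 0.157, 0.158, 0.168 and 0.146 CPM against 2.53, 5.58, 3.4 and 5.55 CPM (-4.65, SE 0.40, edgeR adjusted p = 0.00294). Fcgbp had 3 against 90 counts, 42.9-fold lower (95% counting interval 14.2 to 212). The secreted factor Cytl1 was counted 0 times in transgenic and 75 times in wild-type blood, at least 35.7-fold lower against a floor of 3 counts over the group. Xkrx, which encodes a membrane protein of the XK family, read 2.08, 3.22, 2.61 and 2.4 CPM against 7.58, 6.72, 5.9 and 4.78 CPM and fell by 1.28 on the log2 scale (edgeR adjusted p = 0.0393).

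The counts of epidermal calls moved with the libraries in the fit as well. When each library was left out in turn, 3 or 4 basal genes and 6 to 13 suprabasal genes passed by edgeR: 6 suprabasal genes without transgenic replicate 1 or 4 or replicate 4 of the wild type, 7 without transgenic replicate 3 or replicate 2 of the wild type, 10 without wild-type replicate 1 and 13 otherwise. Skeletal muscle had 1 called gene when transgenic replicate 1 or 4 or replicate 1, 2 or 4 of the wild type was left out, 2 without transgenic replicate 3, 5 without transgenic replicate 2 and 3 without wild-type replicate 3. Without transgenic replicate 1, 3 or 4 or replicate 1, 2 or 4 of the wild type, 0 fibroblast genes and 0 sebaceous gland genes passed, and the 2 hair keratins passed only without transgenic replicate 2 or replicate 1 or 3 of the wild type. Fibroblast and sebaceous calls numbered 10 and 3 without transgenic replicate 2. When the genes at least 10 times more abundant in skin were left out of the fit, 0 higher genes and 1 lower gene (Krt2) passed among the remaining 7748, with 1314 at an unadjusted p under 0.05. In that fit the medians stayed at 3.72 for specific granule, 2.21 for gelatinase granule and -0.91 for T cell receptor genes.

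The genotype difference was also tested for dependence on sex. With 2 animals of each sex and genotype, 0 of 10701 genes passed the edgeR test of the sex-by-genotype term, 268 genes had an unadjusted p under 0.05, and DESeq2 called 2 genes, Serpina1b and Fgb. Both encode liver-made plasma proteins and were highest in transgenic replicate 2, a male. Serpina1b read 0, 33.3, 1.09 and 1.09 CPM in transgenic and 0, 0, 5.01 and 1.81 CPM in wild-type libraries, and Fgb 0, 141, 2.35 and 7.28 CPM against 0, 0, 14.9 and 1.42 CPM. Both male wild-type libraries (replicates 1 and 2) and male transgenic replicate 1 were at 0 for both genes. Within females alone and within males alone, 0 genes passed the edgeR test of genotype, with 1330 and 843 at an unadjusted p under 0.05.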

How the data were processed

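Whole-blood RNA of 8 animals was sequenced as stranded poly(A) libraries, per the labels' protocols. Per the submitters' processing notes, STAR 2.5.2, HTSeq 0.6.1 and DESeq2 were used with mm10. The sources used here do not state the annotation or the strand setting. The authors deposited whole-number gene counts, one table for skin and blood (24401 genes). GENCODE M21 named 17342 of them. Skin columns served only to compare levels. From the deposited counts, genes kept by edgeR's filterByExpr (version 4.0.16, R 4.3.3, minimum count 10, by genotype) were scaled by TMM and tested with the quasi-likelihood F-test, with sex as a covariate and Benjamini-Hochberg adjustment at 0.05. CPM are counts scaled to a common, TMM-adjusted library size unless they are called CPM of total counts. No molecular identifiers are named in the labels, and counting intervals cover counting error only. Total counts per library were 11197265 to 18235483, and those outside haemoglobin genes 2698629 to 7938213. Sex-linked genes matched the labelled sex in 8 of 8 libraries. Any 2 replicates of a group differed by more than sampling noise (chi-square per degree of freedom 12.7 to 103 over 12 pairs).

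Alternatives were DESeq2 1.42.0, limma-voom (limma 3.58.1), other filters and scalings, haemoglobin genes left out or their share as a covariate, no sex term, a replicate block, skin-abundant genes left out, all 16 tissue libraries in one fit, each sex alone and each library left out. The test was checked on simulated data. The gene lists and the members were chosen with earlier results of these data known, and lists are described by counts and medians without a test of their own. The genes named are those called and not overlapping with the 15 highest and 15 lowest fold changes at a mean of at least 1 CPM, the called members of each list (up to 6 by p) or, with fewer than 2 called, its 3 smallest p values, of which only some are printed. Other genes named, among them Camp, Lcn2, Mmp8, Mmp9, Ly6g, Csf3r, Cxcr2, S100a8, S100a9, Il1b, Lyz2, Ccr2, Cd4, Cd8a, Lck, Trac, Cd5, Trbc1, Cebpe, Isg15, Irf7, Dcn and the further called genes, were chosen after their values were seen. Figures used matplotlib 3.10.9.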

Additional observations from a re-analysis of the deposited data

Results flagged for a closer look

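A value was singled out where its value lay far from the other 3 of its group (Dixon's criterion for 4 values). Chance gives this in about 1 in 20 groups of normally distributed values. Many groups here hold low and skewed CPM, and a group with counts in only 1 library always meets the criterion. Of 275 groups of named values 34 were picked out (12.4%), a share that cannot be set against 1 in 20. No explanation was tested.

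Several named genes, among them Apoa1, Ttr, Upk3b and Dcn, were chosen after their values were seen, which affects the order of libraries. Among the named genes transgenic replicate 2 stood apart most often. Its CPM was high for the liver genes Alb (908), Fgb (140.5), Apoa1 (56.5), Ttr (48.2) and Serpina1b (33.3), for Dcn (42.2), Upk3b (16.1), Krt14 (1.05) and Vgll3 (0.791), and for Elovl3 (0.105) and Fa2h (0.264), which the other 3 transgenic libraries had at 0. It was low for Cd3e (5.11), Klra8 (2.16) and Col17a1 (0.0527).

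Among wild-type libraries, replicate 4 was high for Prg4 (68.4), Alox15 (51.8), Cd8a (38.6), C1qb (32.3), Cd27 (14.3), Cma1 (7.88), Timd4 (6.33) and Ctsg (0.129). Wild-type replicate 3 was high for Lcn2 (59.2), Fgb (14.9), Ly6g (6.93), Prok2 (1.09) and Kcnn3 (0.128). In wild-type replicate 1 only Abca13 (0.225) was so picked out. Transgenic replicate 3 was high for Fcer2a (36.0) and Selp (14.5) and low for Cldn15 (1.68), and transgenic replicate 1 was high for Pkp1 (0.511), Krt84 (0.118) and Krt36 (0.0393).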

How the results depend on the processing

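Numbers of called genes moved with nearly every choice. Higher genes numbered 33 and lower genes 57 by edgeR, against 301 and 118 with DESeq2, 4 and 19 with limma-voom, and 836 and 265 with no filter on low counts. They were 118 and 47 scaled by total counts, 67 and 69 without the sex term, 120 and 74 with all 16 tissue libraries in one fit, 0 and 14 with the haemoglobin share as a covariate, and 0 and 1 without skin-abundant genes. In females alone and in males alone 0 and 0 passed. Leaving out 1 library gave 0 to 351 higher and 12 to 215 lower genes. Leaving haemoglobin genes out (40 and 59), a stricter filter (29 and 48) and a filter on the full design, chosen after seeing the data (24 and 61), moved the counts by less than 1.5 times. Sex by genotype had 0 genes by edgeR and 2 by DESeq2. With the replicate block 53 higher and 56 lower genes passed, but same-numbered libraries did not deviate together (correlations 0.385, 0.0028, -0.227 and -0.114), so the numbers were not taken as pairs.

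The difference in the haemoglobin share of counts was -11.2 to -5.41 percentage points with 1 library left out and -7.09 with 3 more red cell genes added, and passed in none of these. Among single genes, none of the called ones changed direction. The uncalled Il1b turned to -0.25 with the haemoglobin covariate and to -0.16 without transgenic replicate 1 (range over libraries left out -0.16 to 1.05), Irf7 to 0.042 scaled by total counts, and Dcn to 0.59 in males. With the haemoglobin covariate Hba-a1, Hba-a2, Hbb-bs, Hbb-bt and Hbq1b turned to 0.17, 0.10, 0.16, 0.15 and 0.28, and Hbq1b also to 0.10 scaled by total counts and 0.082 without wild-type replicate 2 (range over libraries left out -0.54 to 0.082). The causes were not tested. With 4 animals a group and high haemoglobin shares, the counts left outside haemoglobin genes limit what can be called for genes of low level.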

Other observations

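Some genes of tissue-resident cells and of the liver varied between libraries within both genotypes. These genes were chosen after their values were seen, and none of those tested passed for genotype. The complement chain C1qb of resident macrophages read 0.864, 56.7, 23.7 and 2.26 CPM in transgenic replicates 1 to 4 and 0.618, 1.27, 4.3 and 32.3 CPM in wild type, so transgenic replicates 2 and 3 and wild-type replicate 4 were high. The same 3 libraries were the highest for Prg4, a lubricating proteoglycan (1.18, 113, 50.3 and 4.51 against 1.68, 1.4, 4.62 and 68.4 CPM), and for the lipoxygenase Alox15 (4.52, 103, 47.4 and 13.3 against 3.14, 2.54, 7.83 and 51.8 CPM). They were also the highest for the phagocytic receptor Timd4 (0, 4.75, 5.47 and 0.437 against 0.0561, 0, 0.128 and 6.33 CPM) and for the mast cell protease Cma1 (0.353, 3.9, 3.95 and 0.437 against 0.393, 1.01, 0.898 and 7.88 CPM).

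Liver genes followed another order, with transgenic replicate 2 first and wild-type replicate 3 next. Apoa1, a lipoprotein, read 0, 56.5, 1.6 and 1.75 CPM in transgenic and 0.112, 0.127, 11.3 and 3.75 CPM in wild-type libraries, and the thyroxine carrier Ttr 0, 48.2, 0.673 and 1.38 CPM against 0.168, 0.254, 6.29 and 1.68 CPM. The mesothelial gene Upk3b was highest in transgenic replicate 2, at 0.0393, 16.1, 0.841 and 0.0728 CPM against 0.73, 0, 0.128 and 0.646 CPM.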
